A study of Mus musculus with 12 samples.

Results

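Zfp36, Zfp36l1, Zfp36l2, Btg1 and Btg2 are 5 genes whose proteins shorten the life of messenger RNAs, and their transcripts were measured here in mouse neutrophils by polyadenylated RNA sequencing. They were chosen by gene symbol, with earlier values of the same libraries known, and they are 5 of the 23621 symbols in the count table. All 5 passed the filter on low counts, which 10604 symbols passed. Because the choice rested on these values, the levels of the 5 genes are given as a description with no test.

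Female Balb/c mice, 8 weeks old, supplied the cells, which form 3 groups of 4 libraries. Low-density neutrophils (LDN) and high-density neutrophils (HDN), the light and heavy fractions on separation by density, came from the peripheral blood of mice with liver metastases and are numbered 3, 4, 5 and 7 in both groups. Naive libraries, numbered 1 to 4, came from the bone marrow of mice without metastases. No label names a sort, a purity, a tumour line or the animal behind a library, so any spread between libraries may be technical. Tissue of origin, tumour status and a date-like tag in the column names of the blood libraries cannot be told apart wherever a blood group is set against Naive.

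The Zfp36 proteins bind AU-rich elements in the 3′ untranslated regions of messenger RNAs through a pair of zinc fingers and recruit the CCR4-NOT complex, which removes the poly(A) tail. Zfp36 encodes tristetraprolin (TTP), induced quickly by inflammatory stimuli and known in mice for limiting Tnf. Zfp36l1 and Zfp36l2 are its paralogs, known for roles in lymphocyte development and in cell quiescence. Btg1 and Btg2 belong to the antiproliferative BTG/TOB family; they bind the Cnot7 and Cnot8 deadenylases and speed up tail removal, and have been studied most as brakes on proliferation.

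Messages of the Zfp36 family carry the element that the family reads, so 1 site per gene is shown with 10 bases on each side, next to a site of Tnf, the classical TTP target. Capitals mark the heptamer TATTTAT, read 5′ to 3′ on the message strand as DNA letters from the longest coding transcript of GENCODE M21.
Zfp36, chromosome 7, 590 bases after the stop codon: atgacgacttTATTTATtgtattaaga
Zfp36l1, chromosome 12, 1405 bases after the stop codon: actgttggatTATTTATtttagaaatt
Zfp36l2, chromosome 17, 822 bases after the stop codon: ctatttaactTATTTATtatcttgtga
Btg2, chromosome 1, 103 bases after the stop codon: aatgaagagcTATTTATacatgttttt
Tnf, chromosome 17, 439 bases after the stop codon: ttgcacttatTATTTATtatttattta
The heptamer occurred 3 times in each of the Zfp36, Zfp36l1 and Zfp36l2 untranslated regions, of 774, 1835 and 1822 bases, once in the 2199 bases of Btg2, and 0 times in the 4166 bases of Btg1. Of 9791 tested genes with such a region, 29.7% held at least 1 heptamer and 3.87% held 3 or more. The nonamer TTATTTATT, which contains the heptamer, was found once in each of the 3 Zfp36 family genes and in 8.16% of genes. A match is a run of letters and not a measured binding site.

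Start regions are shown for 3 genes because the levels of Zfp36 and Btg2 moved together over the 12 libraries, as given further on, while Zfp36l1 moved the other way against Naive. Each runs from 250 bases before to 50 bases after the gene's start in RefSeq (GRCm38.p6); the RefSeq table used here holds 4 of the 5 genes, and Zfp36l2 is named only. Capitals in the Zfp36 sequence mark an EGR motif (GCGNGGGCG), a CArG box and a STAT motif (TTCNNNGAA). Capitals in the Btg2 sequence mark a cAMP response element (TGACGTCA) and an EGR motif, and those in Zfp36l1 an AP-1 motif (TGANTCA) and a TATA motif (TATAAA).
Zfp36, chr7:28379179-28379478, minus strand: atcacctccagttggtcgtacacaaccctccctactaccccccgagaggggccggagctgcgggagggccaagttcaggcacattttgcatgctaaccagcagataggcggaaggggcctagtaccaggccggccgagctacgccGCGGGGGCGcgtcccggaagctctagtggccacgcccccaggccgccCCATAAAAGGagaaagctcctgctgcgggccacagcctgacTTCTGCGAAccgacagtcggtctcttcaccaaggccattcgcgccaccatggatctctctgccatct
Btg2, chr1:134079106-134079405, minus strand: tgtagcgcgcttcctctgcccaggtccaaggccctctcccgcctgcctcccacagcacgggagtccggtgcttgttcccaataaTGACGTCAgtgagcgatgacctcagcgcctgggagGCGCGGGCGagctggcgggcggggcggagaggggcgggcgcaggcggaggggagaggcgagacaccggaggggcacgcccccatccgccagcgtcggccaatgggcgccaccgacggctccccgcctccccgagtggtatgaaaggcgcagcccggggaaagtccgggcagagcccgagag
Zfp36l1, chr12:80112964-80113263, minus strand: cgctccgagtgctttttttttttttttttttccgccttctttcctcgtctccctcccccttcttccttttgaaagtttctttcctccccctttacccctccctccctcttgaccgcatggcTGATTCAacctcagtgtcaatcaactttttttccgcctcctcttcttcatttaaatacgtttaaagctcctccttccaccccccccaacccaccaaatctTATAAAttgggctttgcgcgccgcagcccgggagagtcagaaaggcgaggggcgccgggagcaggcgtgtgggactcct
Among 32851 promoters of the same length, the CArG box was present in 1.63%, the cAMP response element in 1.79%, the EGR motif in 5.55%, the AP-1 motif in 7.81% and the STAT motif in 8.30%, each on either strand; the TATA motif, searched on the promoter strand alone, was in 8.32%. GC content was 63.7% in the Zfp36 window, 72.0% in the Btg2 window and 52.0% in the Zfp36l1 window, beside a median of 52.7% over all promoters. The motif shares are not matched for GC content. A kappaB site, also searched, was found in 0 of the genes and in 8.46% of promoters. The Btg1 window (chr10:96616751-96617050, plus strand) had a TATA motif and, on the other strand, a FoxO motif (GTAAACA), which 3.65% of promoters held. No factor binding was measured.

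Libraries held 23181686 to 26456768 counts in LDN, 20049857 to 30044508 in HDN and 18113922 to 27741885 in Naive. Levels are given in CPM, the reads of a gene set against the size of its library, with sizes adjusted by TMM, a factor that makes the bulk of genes comparable. A count of 3 reads corresponds to 0.0954 to 0.153 CPM, below all values of the 5 genes. The neutrophil label was checked on marker lists. The 10 mature neutrophil markers summed to 18040 to 20917 CPM in LDN, 19863 to 27285 CPM in HDN and 16809 to 20451 CPM in Naive, and the 12 immature markers to 29378 to 41580 CPM in LDN, 1985 to 3810 CPM in HDN and 60219 to 65776 CPM in Naive, with no marker of either list at 0 in any group. Monocyte and macrophage markers, 9 with a row, summed to 496 to 654 CPM in LDN, 436 to 688 CPM in HDN and 650 to 877 CPM in Naive. Single markers of this list differed more than the sums. In LDN over HDN 5 of the 9 were higher and 1 lower at an edgeR adjusted p under 0.05, with a median log2 fold change of 2.09. Of all tested genes 26.0% were higher and 20.3% lower. Fn1 averaged 176 CPM in LDN, 12.6 CPM in HDN and 8.60 CPM in Naive, and Csf1r 122, 367 and 319 CPM in the same order. T cell markers, 9 with a row, summed to 33.8 to 51.4 CPM in LDN, 4.08 to 22.4 CPM in HDN and 194 to 267 CPM in Naive. Cd3d averaged 34.7 CPM in LDN, 8.11 CPM in HDN and 214 CPM in Naive, and Cd3e averaged 0.718 CPM in LDN, 0.535 CPM in HDN and 0.0876 CPM in Naive. B cell markers reached at most 7.56 CPM in LDN, 2.85 CPM in HDN and 46.7 CPM in Naive, NK cell markers at most 3.88 CPM in LDN, 0.723 CPM in HDN and 2.95 CPM in Naive, eosinophil and basophil markers at most 23.9 CPM in LDN, 86.3 CPM in HDN and 66.1 CPM in Naive, and platelet and erythroid markers at most 33.7 CPM in LDN, 11.5 CPM in HDN and 124.5 CPM in Naive. Mean levels were at 0 in LDN for 1 B cell, 1 eosinophil or basophil and 3 platelet or erythroid markers, in HDN for 1 NK cell, 2 eosinophil or basophil and 2 platelet or erythroid markers, and in Naive for 1 eosinophil or basophil and 2 platelet or erythroid markers. Siglecf, of the eosinophil and basophil list, averaged 17.6 CPM in LDN, 63.1 CPM in HDN and 9.80 CPM in Naive. Prg2, of the same list, averaged 0.478, 0.170 and 26.1 CPM in the same order. Itgb3, of the platelet and erythroid list, averaged 26.5 CPM in LDN, 3.54 CPM in HDN and 113 CPM in Naive. In bulk RNA, fewer cells of a type and less RNA per cell cannot be told apart.

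Zfp36l1 had the highest fold changes of the 5 genes, both against Naive. In LDN it stood at 265, 284, 227 and 319 CPM in libraries 3, 4, 5 and 7, and in HDN at 537, 473, 539 and 441 CPM in the same numbers. Naive libraries 1 to 4 held 6.73, 7.86, 7.37 and 6.26 CPM, or 176, 213, 145 and 124 reads. The 3 groups did not overlap, with HDN highest and Naive lowest by far. Means were 274 ± 38.7 CPM in LDN, 497 ± 48.7 CPM in HDN and 7.06 ± 0.704 CPM in Naive (SD, n = 4 each). The fitted log2 fold change was 6.14 ± 0.16 (SE) for HDN over Naive, a 70.4-fold difference, and 5.27 ± 0.15 for LDN over Naive, a 38.7-fold difference. Between the blood fractions it was -0.86 ± 0.13, LDN being 1.82-fold lower than HDN. In absolute size the HDN over Naive change stood at the 97.7th percentile of tested genes and the LDN over Naive change at the 98.5th percentile. The authors' deposited table gave log2 values of 6.11 for HDN against Naive and 5.20 for LDN against Naive.

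Zfp36l2, the other paralog, had a different profile. It was at 493, 515, 429.8 and 746 CPM in LDN libraries 3, 4, 5 and 7, and at 1059, 1026, 1007 and 1061 CPM in HDN. Naive libraries 1 to 4 were at 594, 569, 433 and 399.8 CPM. All HDN libraries were above all others, and LDN and Naive overlapped. HDN was also the tightest group, with 1038 ± 26.3 CPM (SD, n = 4), against 546 ± 138 CPM in LDN and 499 ± 96.8 CPM in Naive. LDN was 1.90-fold lower than HDN (log2 change -0.93 ± 0.17), HDN 2.08-fold higher than Naive (1.06 ± 0.17), and LDN over Naive was 0.13 ± 0.17. Without LDN 7, the LDN over Naive value was -0.11.

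Zfp36 itself was highest in bone marrow. LDN libraries 3, 4, 5 and 7 had 549, 681, 546 and 1183 CPM, HDN libraries had 1014, 849, 1087 and 929 CPM, and Naive libraries 1 to 4 had 3589, 2949, 1678 and 1747 CPM. Each Naive library was above each blood library, while LDN and HDN overlapped because LDN 7 was above all 4 HDN libraries. Means were 739.6 ± 302 CPM in LDN, 969.9 ± 103 CPM in HDN and 2491 ± 936 CPM in Naive (SD, n = 4 each). Zfp36 was 3.37-fold lower in LDN than in Naive (log2 change -1.75 ± 0.29) and 2.57-fold lower in HDN than in Naive (-1.36 ± 0.28). The LDN over HDN value was -0.39 ± 0.28, with LDN lower in 3 of the 4 pairs that share a number, and it was -0.78 without LDN 7.

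Btg1 separated the blood fractions more than the other 4 genes did. LDN libraries 3, 4, 5 and 7 were at 666, 691, 545 and 824 CPM and HDN libraries at 2389.5, 2449, 2315 and 1935 CPM. Naive libraries 1 to 4 were at 2365, 2234, 1665 and 1607 CPM. HDN and Naive overlapped, and LDN lay below both. Means were 681 ± 114 CPM in LDN, 2272 ± 231 CPM in HDN and 1968 ± 387 CPM in Naive (SD, n = 4 each). LDN was 3.33-fold lower than HDN (log2 change -1.74 ± 0.17) and 2.89-fold lower than Naive (-1.53 ± 0.17), and HDN over Naive was 0.21 ± 0.16. The LDN over HDN change stood at the 89.8th percentile of tested genes in absolute size.

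Btg2 followed the order of Zfp36. It had 165, 177, 198 and 268 CPM in LDN libraries 3, 4, 5 and 7, 239.9, 205, 307 and 306 CPM in HDN, and 1206, 1102, 725 and 695 CPM in Naive libraries 1 to 4. Naive lay above both blood groups without overlap, and LDN overlapped HDN. Means were 202 ± 46.3 CPM in LDN, 265 ± 50.6 CPM in HDN and 932 ± 260 CPM in Naive (SD, n = 4 each). Btg2 was 4.62-fold lower in LDN than in Naive (log2 change -2.21 ± 0.22) and 3.52-fold lower in HDN than in Naive (-1.82 ± 0.22). LDN over HDN was -0.39 ± 0.21, and LDN was lower in 4 of 4 pairs, by -0.64 to -0.19 on the log2 scale.

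**Figure D1:**
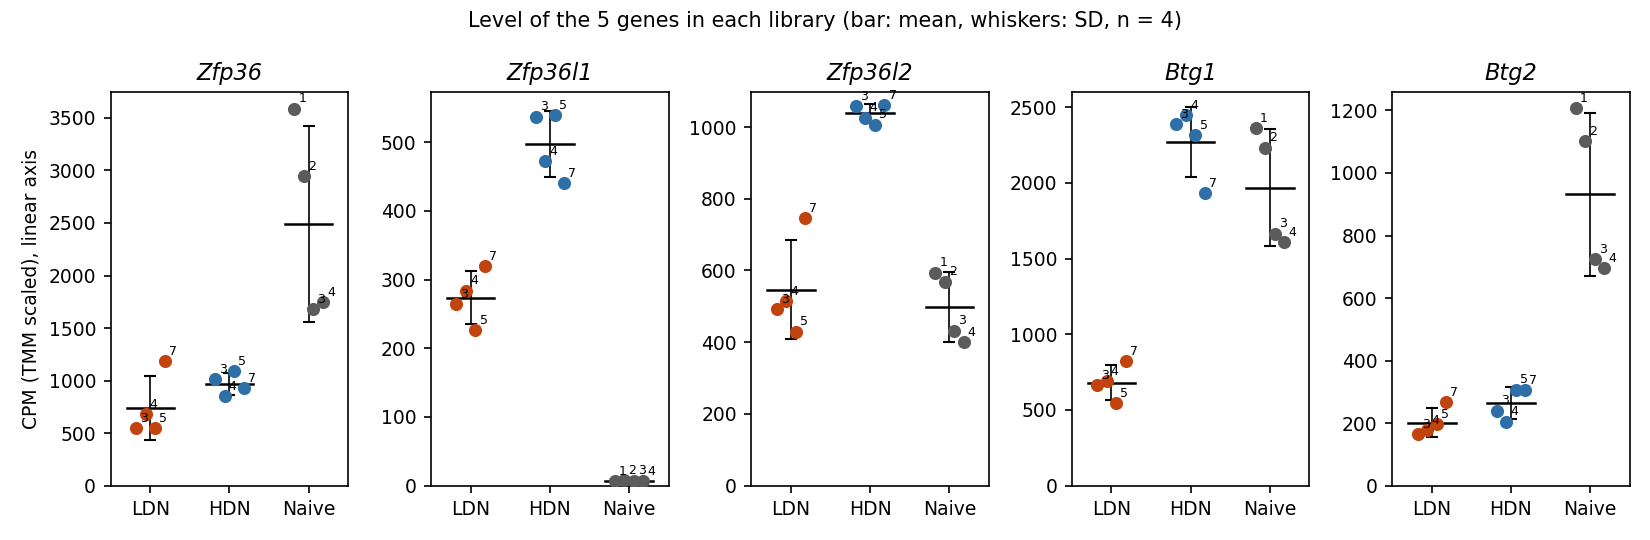
Level of each gene in CPM (linear axis from 0) in the 4 LDN, 4 HDN and 4 Naive libraries; points are libraries and bars are group means with SD. Zfp36l1 is between 6.26 and 7.86 CPM in Naive and at least 227 CPM in blood, while Zfp36 and Btg2 are highest in Naive.

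Set side by side, the 5 genes fell into different orders. Zfp36l1 was highest in HDN and lowest in Naive, Zfp36l2 had HDN above an overlapping LDN and Naive, Btg1 had LDN below an overlapping HDN and Naive, and Zfp36 and Btg2 had Naive above an overlapping LDN and HDN. Libraries did not overlap for 3 of 5 genes between LDN and HDN, all lower in LDN, beside 39.2% of all tested genes (23.6% higher and 15.7% lower). For HDN and Naive this held for 4 of 5, with 2 higher and 2 lower in HDN, beside 53.3% of all tested genes (25.5% higher and 27.8% lower). For LDN and Naive it held for 4 of 5, with 1 higher and 3 lower in LDN, beside 55.3% (27.5% higher and 27.8% lower). The choice of genes used these same contrasts, so nothing is read from these shares. The median log2 fold change over all tested genes was 0.02 for LDN over HDN, 0.04 for HDN over Naive and 0.01 for LDN over Naive.

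**Figure D2:**
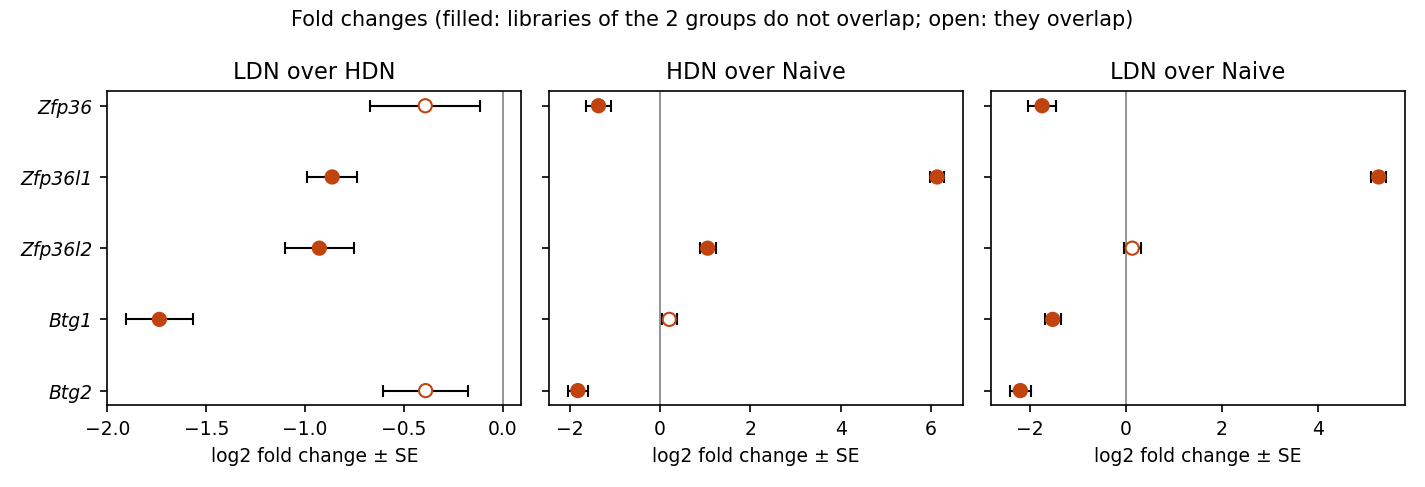
Fitted log2 fold changes with SE for the 5 genes in LDN over HDN, HDN over Naive and LDN over Naive, filled where the libraries of the 2 groups do not overlap. All 5 values are below 0 for LDN over HDN, from -1.74 to -0.39, and Zfp36l1 stands at 6.14 and 5.27 in the comparisons against Naive.

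By fraction pair, LDN was lower than the HDN library of the same number in 4 of 4 pairs for Zfp36l1 (log2 ratios -1.25 to -0.47), Zfp36l2 (-1.23 to -0.51) and Btg1 (-2.09 to -1.23). Immature neutrophil markers moved with the same contrast: 11 of the 12 were higher in LDN than in HDN and 0 lower at an edgeR adjusted p under 0.05, with a median log2 fold change of 3.91. Among the 10 mature markers, 1 was higher and 6 were lower. Of all tested genes, 26.0% were higher and 20.3% lower in this contrast. The part of neutrophil maturity in the levels of the 5 genes was not tested.

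To set levels of different genes side by side, CPM was divided by the length in kilobases of the longest coding transcript in GENCODE M21. The lengths were 2790 bases for Zfp36, 2990 for Zfp36l1, 3530 for Zfp36l2, 5001 for Btg1 and 2743 for Btg2. Which transcript forms the cells used was not measured, so shares within a family or pair depend on these lengths. On this scale Zfp36 made up 50.9% of the summed level of the 3 Zfp36 family genes in LDN, 42.9% in HDN and 85.5% in Naive. Zfp36l2 made up 30.6% in LDN, 36.5% in HDN and 14.2% in Naive, and Zfp36l1 18.5% in LDN, 20.6% in HDN and 0.248% in Naive. Over single libraries the Zfp36 share was 46.3% to 57.1% in LDN, 40.4% to 45.6% in HDN and 82.8% to 88.3% in Naive, so the blood and marrow ranges were far apart. The family sum was 511 ± 159 CPM per kb in LDN, 808 ± 49.0 CPM per kb in HDN and 1036 ± 362 CPM per kb in Naive (SD, n = 4 each). LDN, at 393 to 742 CPM per kb, lay below HDN, at 753 to 855 CPM per kb, while Naive, at 727 to 1457 CPM per kb, overlapped both.

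Within the Btg pair on the same per-kilobase scale, Btg1 made up 65.0% in LDN, 82.4% in HDN and 54.0% in Naive. The ranges over libraries were 60.2% to 68.9% in LDN, 77.6% to 86.8% in HDN and 51.8% to 55.9% in Naive, and no 2 groups overlapped. The Btg sum was 209.9 ± 36.2 CPM per kb in LDN, 551 ± 35.2 CPM per kb in HDN and 733 ± 172 CPM per kb in Naive (SD, n = 4 each).

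**Figure D3:**
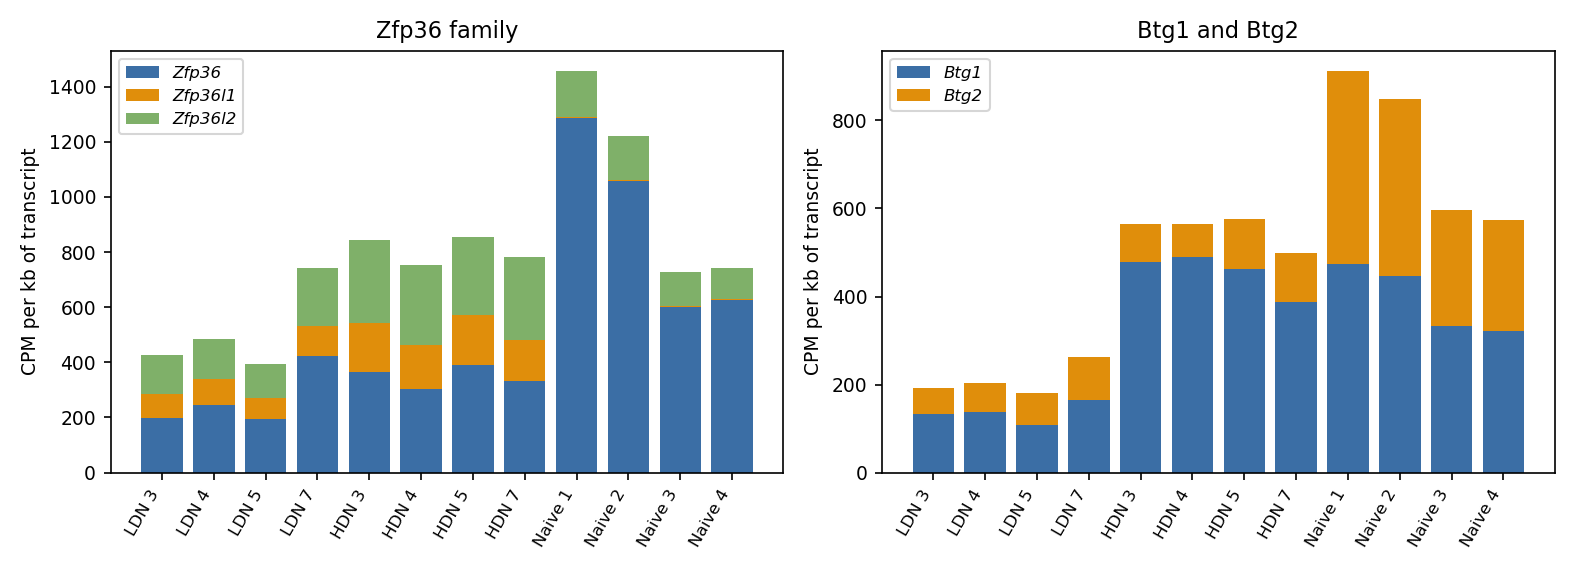
Level in CPM per kilobase of transcript, stacked by gene, for the Zfp36 family and for the Btg pair in each of the 12 libraries (linear axis from 0; 1 bar per library). Zfp36 takes on average 42.9% of its family in HDN and 85.5% in Naive, and Btg1 takes 82.4% of the pair in HDN and 54.0% in Naive.

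Likeness of profile was measured as the root mean square difference between gene-centred log2 CPM over the 12 libraries, among genes averaging 4 or more on the log2 CPM scale; smaller is more alike. Of the pairs among the 5 genes, Zfp36 and Btg2 were closest, at 0.30, and Zfp36l1 and Btg2 farthest, at 3.64. Zfp36l2 and Btg1 differed by 0.68 and Btg1 and Btg2 by 0.88. Outside the 5 genes, those most like Zfp36 were Ptms (0.22), Ier2 (0.25) and Arl11 (0.32), beside a median of 0.96 over all genes compared. Again leaving the 5 out, the genes most like Btg2 were Trib1 (0.29), Ptms (0.31) and Samd9l (0.32), and those most like Btg1 were Pkd1 (0.20), Zfp703 (0.21) and Gadd45b (0.25). Zfp36l2 was nearest to Fxyd5 (0.19), Tmem43 (0.20) and Ube2g1 (0.22). Zfp36l1 was nearest to Soat2 (0.31), Sema6b (0.39) and Entpd3 (0.41), beside a median of 2.67. Soat2, like Zfp36l1, was low in marrow, at 65.1 ± 8.90 CPM in LDN, 116.5 ± 10.9 CPM in HDN and 2.40 ± 0.484 CPM in Naive (SD, n = 4 each).

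Naive libraries 1 and 2 were above Naive 3 and 4 for several of the genes. The log2 difference of the mean of 1 and 2 over that of 3 and 4 was 0.93 for Zfp36, 0.70 for Btg2, 0.49 for Btg1 and 0.48 for Zfp36l2, which put these 4 at the 96.1st to 99.4th percentile of tested genes, and 0.10 for Zfp36l1. The median gene differed by -0.04. Naive 1 and 2 were also the deeper libraries, at 27741885 and 25977108 counts, against 18113922 and 18198123 in Naive 3 and 4. Of 18 immediate-early genes, the fast transcriptional response of cells to stimuli, 17 were likewise higher in Naive 1 and 2, with a median of 0.86, beside 45.0% of all tested genes. In fits chosen after seeing these values, the HDN over Naive log2 value of Zfp36 was -1.76 without Naive 3 and 4 and -0.81 without Naive 1 and 2, and that of Btg1 was -0.03 and 0.48 in the same order.

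LDN 7 stood above the other LDN libraries in the same genes. The log2 difference was 1.01 for Zfp36, 0.64 for Zfp36l2, 0.58 for Btg2, 0.38 for Btg1 and 0.31 for Zfp36l1, at the 85.0th to 98.2nd percentile of tested genes. Of the 18 immediate-early genes, 17 were higher in LDN 7, with a median of 0.65. This held for 48.5% of all tested genes, with a median of -0.0092. The 18 immediate-early genes summed to 4189, 4886, 3566 and 7628 CPM in LDN libraries 3, 4, 5 and 7. They summed to 8982 to 9514 CPM in HDN, and to 10813, 9488, 5711 and 5816 CPM in Naive libraries 1 to 4. Within LDN and within Naive, the libraries with the highest sums had the highest Zfp36 levels, whereas the HDN libraries had sums above that of LDN 7 and Zfp36 levels below it. The part of immediate-early activity in the levels of the 5 genes was not tested.

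**Figure D4:**
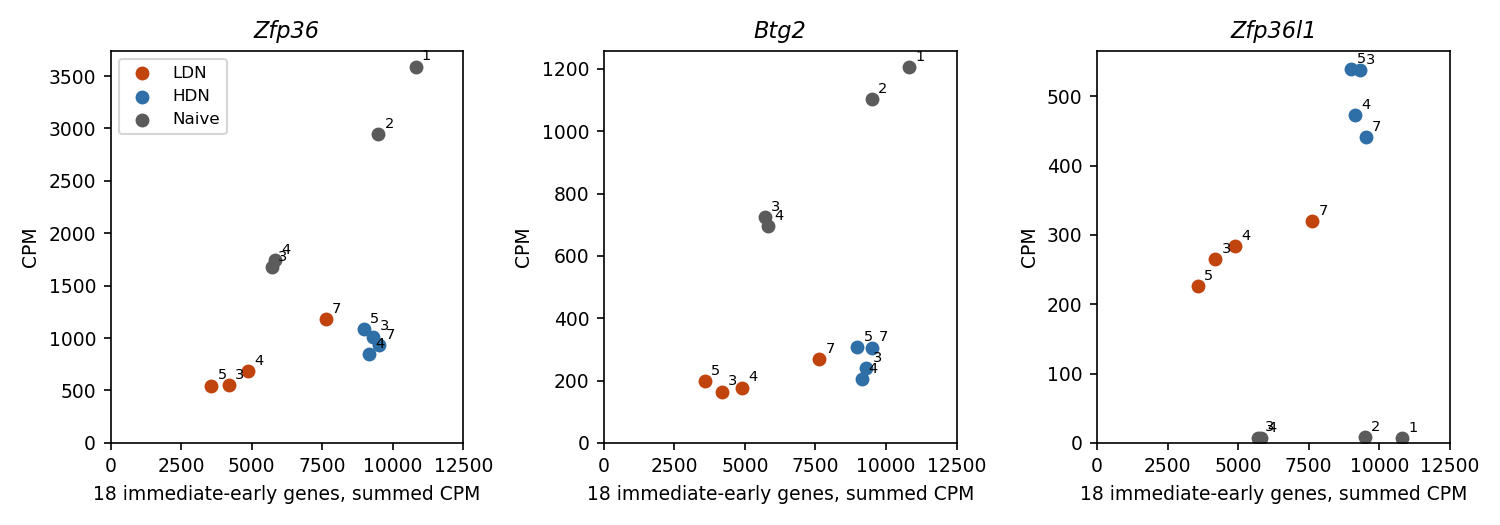
Level of Zfp36, Btg2 and Zfp36l1 in CPM against the summed CPM of 18 immediate-early genes, 1 point per library, numbered by replicate and colored by group. LDN 7 lies to the right of LDN 3, 4 and 5, and Naive 1 and 2 lie to the right of Naive 3 and 4.

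Among immediate-early genes themselves, 0 were higher and 12 of 18 lower in LDN than in HDN at an edgeR adjusted p under 0.05, with a median log2 fold change of -0.97; 46.3% of all tested genes were called, 26.0% higher and 20.3% lower. Atf3, a stress-induced transcription factor, averaged 3.92 ± 1.68 CPM in LDN, against 36.5 ± 8.97 CPM in HDN (log2 change -3.21 ± 0.42, adjusted p = 4.79e-05). Fos, an AP-1 subunit, averaged 317 ± 221 CPM in LDN, against 802 ± 91.4 CPM in HDN (-1.34 ± 0.40, adjusted p = 0.0151). Klf4, a transcription factor of myeloid cells, averaged 6.73 ± 2.40 CPM in LDN, against 16.4 ± 1.97 CPM in HDN (-1.28 ± 0.23, adjusted p = 0.000542). Fosb fell by 1.73 on the log2 scale (adjusted p = 0.0357), a call lost without any 1 of LDN 4, 5 or 7 or HDN 3 or 5, with limma-voom and with no filter on low counts. Against Naive, Fosb fell by 3.63 on the log2 scale in LDN (adjusted p = 0.000348). Atf3 averaged 3.92 ± 1.68 CPM in LDN, against 36.3 ± 18.6 CPM in Naive (adjusted p = 2.44e-05). Fosb also fell in HDN over Naive, by 1.91, whereas Atf3 was not called there (edgeR adjusted p = 0.0130 and 0.988). Jun and Klf4 rose by 2.86 and 2.44 in HDN over Naive (adjusted p = 0.000219 and 1.16e-06). Both genes also rose in LDN over Naive (edgeR adjusted p = 0.00262 and 0.000986). Jun averaged 361 CPM in LDN and 86.5 CPM in Naive, and Klf4 averaged 6.73 CPM in LDN and 3.01 CPM in Naive. In HDN over Naive 6 of the 18 rose and 5 fell (59.8% of all tested genes were called, 30.0% higher and 29.9% lower). In LDN over Naive 2 rose and 10 fell (54.2% called, 27.4% higher and 26.8% lower).

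AU-rich targets of the family were taken from a list of 24, of which 19 were tested and 14 of those held a heptamer. Cdkn1a and Plaur, named below, are among those with 0. Fos, Egr1 and Ier3 are also in the immediate-early list, Il1b in the mature marker list and Cdkn1a in the quiescence list given below. Dusp1 is in both the immediate-early list and the list of TTP control genes given below. The lists are therefore not independent. In LDN over HDN 2 rose and 8 fell, with a median of -0.87, beside 26.0% higher and 20.3% lower of all tested genes. Csf1, a macrophage growth factor, was at 93.5 ± 6.31 CPM in LDN, against 458 ± 94.7 CPM in HDN (log2 change -2.29 ± 0.16, adjusted p = 4.16e-07). Il1b, an inflammatory cytokine, was at 174 ± 80.2 CPM in LDN, against 960.2 ± 375 CPM in HDN (-2.46 ± 0.35, adjusted p = 8.74e-05), and Cdkn1a, a cell cycle inhibitor, at 13.3 ± 3.61 CPM in LDN, against 44.2 ± 16.6 CPM in HDN (-1.74 ± 0.27, adjusted p = 0.000196). Ptgs2, which makes prostaglandins, was near the count floor in LDN, at 0.231 ± 0.136 CPM, against 2.40 ± 2.17 CPM in HDN. Tnf and Plaur, named after their values were seen, were those that rose. Tnf, the cytokine limited by TTP, was at 14.6 ± 1.88 CPM in LDN, against 8.20 ± 2.81 CPM in HDN (0.83 ± 0.21, adjusted p = 0.00561), and Plaur had 0.74 ± 0.15 (adjusted p = 0.00155). Tnf was highest in Naive, where Zfp36 was also highest, at 53.5 ± 5.95 CPM. Its log2 changes over Naive were -2.70 in HDN and -1.87 in LDN (edgeR adjusted p = 1.69e-07 and 6.67e-06). Against Naive, 5 of 19 rose and 7 fell in HDN, and 5 rose and 8 fell in LDN. The shares over all tested genes were 30.0% and 29.9% in HDN, and 27.4% and 26.8% in LDN. Ptgs2 had log2 changes of -4.49 in HDN and -7.83 in LDN (adjusted p = 7.40e-06 and 7.14e-07), with 53.7 ± 12.6 CPM in Naive, and Csf1 and Cdkn1a rose by 3.48 and 2.48 in HDN (adjusted p = 1.80e-09 and 4.16e-06). In LDN, Csf1 and Cdkn1a rose by 1.19 and 0.75 (edgeR adjusted p = 2.32e-05 and 0.0318). Ccl3, a chemokine, fell by 3.02 in LDN and by 1.59 in HDN over Naive (edgeR adjusted p = 2.32e-05 and 0.00202).

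Grouped by heptamers in the untranslated region, genes with 3 or more (379 genes) had a median log2 fold change of -0.13 for LDN over HDN and genes with 0 (6880 genes) of 0.07. For LDN over Naive these medians were -0.23 and 0.06, and for HDN over Naive 0.01 and 0.04. The median untranslated region was 3339 bases in the first class and 819 bases in the second, so length moves with the class; its part was not tested.

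Upstream control of TTP comes from p38 and its kinase MK2, whose phosphorylation of TTP brings in 14-3-3 proteins and blocks decay, and from phosphatases that reverse it. In LDN over HDN 8 of 15 such genes rose and 1 fell, with a median of 0.42, beside 26.0% higher and 20.3% lower of all tested genes. The 14-3-3 genes Ywhab (382 ± 42.3 CPM in LDN, against 156 ± 23.1 CPM in HDN, adjusted p = 7.09e-06) and Ywhaz (603 ± 28.8 CPM in LDN, against 394 ± 36.6 CPM in HDN, adjusted p = 0.000272) rose, as did the MK2 relative Mapkapk3 (158 ± 4.21 CPM in LDN, against 68.9 ± 13.4 CPM in HDN, adjusted p = 1.17e-05). Mapkapk2, which encodes MK2, rose by 0.33 ± 0.12 on the log2 scale (adjusted p = 0.034), a call lost without LDN 3, 4, 5 or 7, HDN 5 or 7, Naive 2, or Naive 1 and 2, and with RLE scaling, no filter on low counts or only the 8 libraries compared; Mapk14, which encodes p38 alpha, had 0.35 ± 0.15 (adjusted p = 0.0782; with the fraction pairs as a block it was 0.0489, and it also passed without HDN 5). Dusp1, a phosphatase that inactivates p38, fell: 1499.9 ± 697 CPM in LDN, against 2989.8 ± 166 CPM in HDN (adjusted p = 0.0147). Against Naive, 3 of 15 rose and 6 fell in HDN, and 6 rose and 1 fell in LDN. The shares over all tested genes were 30.0% and 29.9% in HDN, and 27.4% and 26.8% in LDN. With library sizes without the 20 most abundant genes, the list counts were 3 and 9 in HDN, and 4 and 7 in LDN. On that scale 2488 of all tested genes were higher and 3676 lower in HDN, and 1852 and 3968 in LDN. The balance in LDN turned in the list as it did over all tested genes. Dusp1 rose by 0.91 in HDN over Naive (adjusted p = 0.0171), a call lost without Naive 3, without Naive 4 and without both. Mapkapk3 fell by 1.15 in HDN over Naive (adjusted p = 4.53e-06). Ywhae and Ywhag rose by 1.14 and 0.63 in LDN over Naive (adjusted p = 4.86e-07 and 0.00355). In HDN over Naive, Ywhae rose by 0.58 and Ywhag had 0.08 (edgeR adjusted p = 0.000138 and 0.673).

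Other genes of RNA decay were taken as 5 lists, with 60 tested genes. In LDN over HDN 7 rose, 8 fell and 45 were not called, beside 26.0% higher and 20.3% lower of all tested genes. With the fraction pairs as a block 10 rose and 15 fell. In HDN over Naive 15 rose and 16 fell, beside 30.0% and 29.9% of all tested genes. In LDN over Naive 11 rose and 15 fell, beside 27.4% and 26.8%. Of the other BTG/TOB genes, Btg4 had 0 reads. Tob2 had 36.5 ± 3.36 CPM in LDN, against 45.1 ± 4.59 CPM in HDN (log2 change -0.31 ± 0.11, adjusted p = 0.0352), a call lost without HDN 4 or 7, Naive 2, 3 or 4, or Naive 3 and 4. Tob1 had -0.31 ± 0.12 (adjusted p = 0.0578, and 0.018 with the block; it also passed with RLE scaling, with DESeq2 and without the 20 most abundant genes in the library sizes, among others) and Btg3 -0.35 ± 0.28 (adjusted p = 0.322). In HDN over Naive Btg3 rose by 1.37 (adjusted p = 0.00123), and in LDN over Naive Btg3 rose by 1.02 (adjusted p = 0.0113). The Btg3 call in LDN was lost without LDN 7, without either pair of Naive libraries (1 and 2, or 3 and 4) and without the 20 most abundant genes in the library sizes. Tob1 and Tob2 fell by 0.44 and 0.28 in LDN over Naive (adjusted p = 0.00895 and 0.0443). The Tob2 call was lost without any 1 of LDN 3 or 5, HDN 3 or 5, or Naive 2, 3 or 4, and without either pair of Naive libraries. With the block the Btg3 and Tob2 calls in LDN over Naive were lost too. The block numbers do not pair Naive libraries with blood libraries, so these losses are no check.

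Of 14 other RNA-binding factors of decay, 1 rose and 4 fell in LDN over HDN (1 and 7 with the block). In the main fit 26.0% of all tested genes rose and 20.3% fell. The member that rose was Zc3h12c, with a mean of 0.876 CPM in LDN and 0.306 CPM in HDN, and named after its values were seen. Zc3h12a, the endonuclease Regnase-1, was at 24.0 ± 1.68 CPM in LDN, against 44.7 ± 8.91 CPM in HDN (log2 change -0.90 ± 0.17, adjusted p = 0.000728). The roquin genes Rc3h1 and Rc3h2, which act on stem-loops, fell by 0.81 and 1.11 (adjusted p = 0.022 and 0.0193), both calls lost without HDN 7 and with only the 8 libraries compared; the Rc3h2 call was also lost with limma-voom. Zc3h12d fell by 0.63 (adjusted p = 0.017), a call lost without HDN 3 or HDN 5. Against Naive, Zc3h12d was lowest in Naive, at 90.4 ± 15.0 CPM in LDN, 139.6 ± 39.4 CPM in HDN and 8.24 ± 1.09 CPM in Naive, and rose by 4.08 in HDN and 3.45 in LDN (adjusted p = 4.60e-09 and 3.16e-08). Arid5a, which stabilizes some of the same messages, rose by 1.55 in HDN over Naive (adjusted p = 1.25e-05), and Zc3h12a fell by 1.32 in LDN over Naive (adjusted p = 1.84e-05).

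Genes of CCR4-NOT and other deadenylation were called in both directions in LDN over HDN, where 26.0% of all tested genes rose and 20.3% fell. Of the deadenylases that the Btg proteins bind, Cnot8 had a log2 change of 0.12 ± 0.11 (edgeR adjusted p = 0.368). It was named after its values were seen. Cnot7 was at 51.9 ± 9.90 CPM in LDN, against 24.6 ± 4.12 CPM in HDN (log2 change 1.08 ± 0.16, adjusted p = 0.000121), whereas the scaffold Cnot1 had 0.01 ± 0.33 (adjusted p = 0.983). In all, 3 of 17 rose and 2 fell, the others being the poly(A)-binding genes Pabpc1 (724 ± 150 CPM in LDN, against 411 ± 73.3 CPM in HDN, adjusted p = 0.00118) and Pabpc4 (1.15 ± 0.25, adjusted p = 0.00216; named after its values were seen), and Pan3 and Cnot6l, which fell by 0.65 and 0.68 (adjusted p = 0.00646 and 0.0271). The Cnot6l call was lost without LDN 4, without HDN 3, 5 or 7, without Naive 3 and 4, and with only the 8 libraries compared. Tnks1bp1 fell by 2.02 in HDN and by 1.82 in LDN over Naive (adjusted p = 7.80e-08 and 4.20e-07). Cnot10 rose by 0.88 in HDN and 0.61 in LDN over Naive (edgeR adjusted p = 4.38e-05 and 0.00114), and Pabpc1 by 1.09 in LDN over Naive (adjusted p = 7.90e-05).

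Decapping removes the cap of a deadenylated message, and the exosome degrades it from the tail end. Of 13 decapping genes 2 rose and 0 fell in LDN over HDN, and of 13 exosome genes 1 rose and 1 fell. Beside them, 26.0% of all tested genes rose and 20.3% fell. Dcp1b (2.42 ± 0.39, adjusted p = 0.000272) and Exosc8 (1.07 ± 0.29, adjusted p = 0.0085), with means of at most 2.26 CPM in these fractions, were named after their values were seen. Edc3 rose by 0.44 (adjusted p = 0.0125), a call lost without LDN 4 and without the 20 most abundant genes in the library sizes, and the exosome subunit Exosc5 fell to 7.50 ± 1.84 CPM in LDN, against 15.6 ± 2.63 CPM in HDN (adjusted p = 0.000791). The decapping activator Ddx6 was at 624 ± 242 CPM in LDN, 722 ± 224 CPM in HDN and 202 ± 25.8 CPM in Naive, and rose by 1.84 in HDN and 1.63 in LDN over Naive (adjusted p = 7.55e-05 and 0.000264). Dcp2, the decapping enzyme, rose by 0.70 in HDN and 0.93 in LDN over Naive (adjusted p = 0.0074 and 0.00136). The Dcp2 call in HDN was lost without the 20 most abundant genes in the library sizes and without Naive 1 and 2. Both Dcp2 calls were also lost with the block. Its numbers do not pair Naive libraries with blood libraries, so it is no check on these calls. Exosc10, a nuclear exonuclease of the exosome, fell by 0.67 in HDN and 0.63 in LDN over Naive (adjusted p = 0.000222 and 0.000432). Exosc5 rose by 1.36 in HDN over Naive (adjusted p = 5.02e-05), and Exosc4 by 0.64 in LDN over Naive (adjusted p = 0.0159), a call lost without LDN 4 or Naive 4, without Naive 3 and 4, and without the 20 most abundant genes in the library sizes. Exosc4 also rose by 0.64 in HDN over Naive (edgeR adjusted p = 0.0142). Of 13 exosome genes, 2 rose and 6 fell in HDN over Naive, beside 30.0% and 29.9% of all tested genes. In LDN over Naive 1 rose and 7 fell, beside 27.4% and 26.8%.

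Genes of cell-cycle arrest and quiescence, the processes for which the Btg and Zfp36l genes are known, gave 3 rises and 6 falls of 14 in LDN over HDN. In that comparison 26.0% of all tested genes rose and 20.3% fell. Foxo1, a transcription factor of quiescent cells, was at 9.64 ± 1.99 CPM in LDN, against 21.1 ± 2.40 CPM in HDN (log2 change -1.13 ± 0.17, adjusted p = 0.000157), and Gas7 at 177 ± 4.62 CPM in LDN, against 57.3 ± 8.84 CPM in HDN (1.63 ± 0.14, adjusted p = 1.93e-06). Cdkn2c, a cyclin-dependent kinase inhibitor, rose by 0.84 (adjusted p = 0.0241, and 0.0521 with the block), a call lost without LDN 3, 4 or 7 or HDN 3 or 7, and also with limma-voom, with only the 8 libraries compared and without the 20 most abundant genes in the library sizes. Against Naive it fell by 3.69 in HDN and by 2.85 in LDN (adjusted p = 1.30e-07 and 1.81e-06). Trp53 fell by 1.57 in LDN and by 1.10 in HDN over Naive (edgeR adjusted p = 7.34e-06 and 9.91e-05). In HDN over Naive 5 rose and 5 fell, beside 30.0% and 29.9% of all tested genes. In LDN over Naive 4 rose and 5 fell, beside 27.4% and 26.8%. Without the 20 most abundant genes in the library sizes, the list counts were 3 and 5 in HDN, and 1 and 8 in LDN. On that scale 2488 of all tested genes were higher and 3676 lower in HDN, and 1852 and 3968 in LDN.

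**Figure D5:**
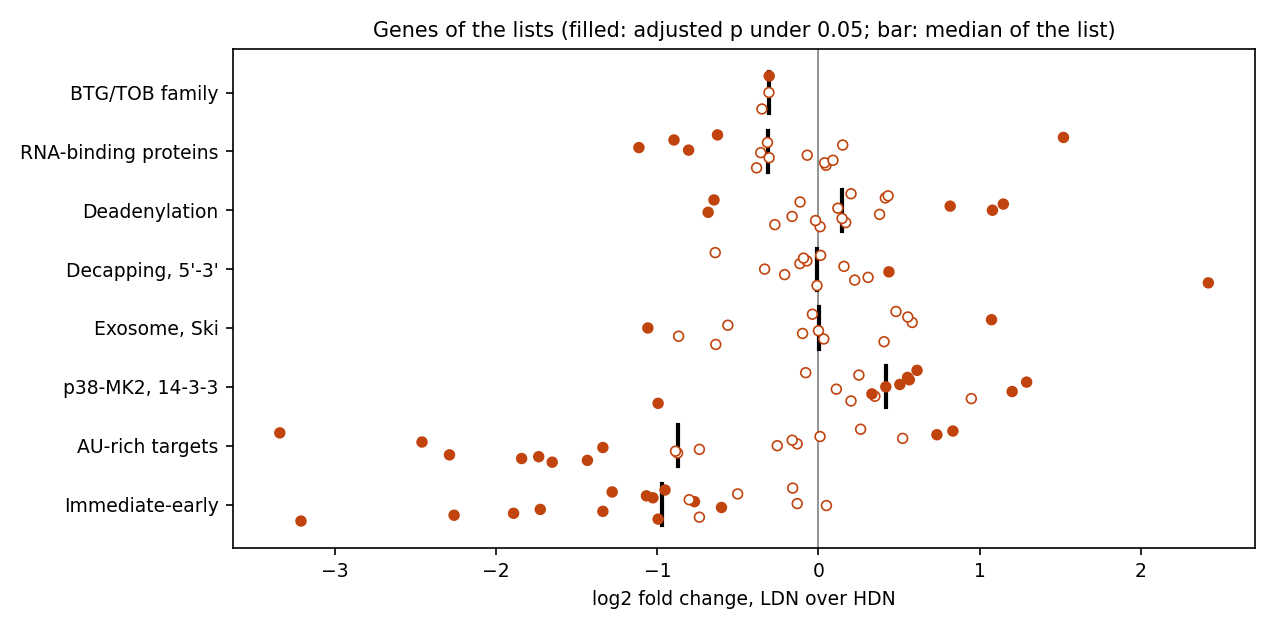
Fitted log2 fold changes of LDN over HDN for the tested genes of the RNA decay, TTP control, AU-rich target and immediate-early lists; points are genes, filled where the edgeR adjusted p was under 0.05, and bars are list medians. The immediate-early median is -0.97 and the AU-rich target median -0.87. Fos, Egr1 and Ier3 are in both of these lists, and Dusp1 is in the TTP control and immediate-early lists.

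Reads of Zfp36, Zfp36l1 and Zfp36l2 cannot be told apart from those of genes annotated on the other strand, since the strand setting of the counting is not given in the sources used here. In GENCODE M21, Gm44710 covers 36.7% of the Zfp36 span, Gm26669 94.4% of the Zfp36l1 span and AC132455.1 54.6% of the Zfp36l2 span; these were not analysed here. The near copies Btg1-ps1 and Btg1-ps2 had 0 reads and Zfp36l3 had 3.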

How the data were processed

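The authors deposited raw counts of 23621 gene symbols in 12 libraries; 0 columns of sample values were left unmatched. Per the labels' protocols, RNA was extracted with TRIzol and RNeasy and made into stranded polyadenylated KAPA libraries. CASAVA 1.8.2, Trimmomatic, STAR and DESeq2 1.16.1 were used, per the submitters' processing notes; build, annotation and strand setting of the authors' run were not given in the sources used here. Per the file headers, 3 further deposited tables hold the authors' DESeq2 comparisons: a mean normalized signal, a log2 fold change with its error, a test score, and raw and adjusted p-values; only log2 values were printed from them.

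Counts were fitted with edgeR 4.0.16 in R 4.3.3 (filter on low counts by group, TMM scaling, robust quasi-likelihood fit with 1 mean per group over all 12 libraries) and called at a Benjamini-Hochberg adjusted p under 0.05 over 10604 genes, which held 99.967% of counts. The step was tested on simulated data. SE is the log2 fold change divided by the square root of F. TMM sets most genes level between libraries, so each fold change is measured against them. Reads carry no molecular identifiers, so the floor of 3 counts covers counting error only. Alternatives were RLE scaling, library sizes without the 20 most abundant genes, no filter on low counts, a filter of 1 CPM in 4 libraries, DESeq2 1.42.0, limma-voom (3.58.1), only the 8 libraries compared, a replicate block, and leaving out each library.

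LDN and HDN share replicate numbers. Deviations from the group mean correlated at 0.31 to 0.76 in the 4 same-numbered pairs and at -0.61 to 0.41 in the 12 other pairs. The numbers were therefore taken to pair these fractions, while Naive numbers were not (-0.13 to 0.16). The main fit left the pairs out. With them as a block, 2848 genes were lower in LDN than in HDN, against 2153 in the main fit. List counts with the block, higher and lower, were 0 and 14 for immediate-early, 2 and 9 for AU-rich target and 10 and 1 for TTP control genes. They were 2 and 7 for quiescence genes, 12 and 0 for immature and 2 and 7 for mature neutrophil markers.

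The 5 genes, the gene lists and the tests were chosen with earlier results of these data known. Named genes were the 5, the other BTG/TOB genes, Mapk14, Mapkapk2, Dusp1, Cnot1 and Cnot7, the 3 genes nearest in profile to each of the 5, and from each list the called genes with the largest changes (up to 4 for LDN over HDN and 2 for each comparison with Naive) among those averaging 3 or more in log2 CPM.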

Additional observations from a re-analysis of the deposited data

How the results depend on the processing

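The log2 fold changes of the 5 genes kept their sign under each alternative except Zfp36l2 in LDN over Naive (-0.15 without the 20 most abundant genes, -0.11 without LDN 7 and -0.093 without Naive 3 and 4) and Btg1 in HDN over Naive without Naive 3 and 4; of all their alternative values 315 moved by less than the spread between libraries and 15 by more. Leaving out 1 library moved LDN over HDN to between -0.78 and -0.33 for Zfp36, -1.18 and -0.88 for Zfp36l2, -1.90 and -1.70 for Btg1 and -0.62 and -0.31 for Btg2, each lowest without LDN 7. The count of RNA decay genes lower in HDN than in Naive ranged from 8, without HDN 3, to 16 when 1 library was left out, and of those higher from 11 to 17. Library sizes without the 20 most abundant genes shifted the median gene by -0.14 in LDN over HDN, -0.15 in HDN over Naive and -0.29 in LDN over Naive. Genes called higher and lower were then 2245 and 2776 in LDN over HDN (2761 and 2153 with TMM), 2488 and 3676 in HDN over Naive (3177 and 3167), and 1852 and 3968 in LDN over Naive (2910 and 2840). On that scale Zfp36l1 stood at 5.98 in HDN over Naive and 4.99 in LDN over Naive, and Btg1 at -1.81 in LDN over Naive; RNA decay calls were 13 lower in LDN over HDN, 9 higher in HDN over Naive, and 5 higher and 23 lower in LDN over Naive. With only the 8 libraries compared, 5 RNA decay genes were lower in LDN over HDN. With the replicate block, 15 were lower in LDN over HDN, 9 higher in HDN over Naive and 7 higher in LDN over Naive; Zfp36 was -0.94, Zfp36l2 1.28 and Btg1 0.52 in HDN over Naive, and Btg1 -1.23 in LDN over Naive. For the comparisons with Naive the numbers pair nothing, so the block is no check on them. Without Naive 3 and 4, chosen after seeing the data, HDN over Naive was -1.76 for Zfp36, 0.83 for Zfp36l2 and -0.028 for Btg1 and -2.14 for Btg2, with 9 decay genes higher and 10 lower; without Naive 1 and 2 it was -0.81, 1.32, 0.48 and, for Btg2, -1.42, with 8 higher. Of the other named genes, 1504 alternative values kept their call, 74 lost it, 14 gained it and 14 changed sign. Those 14 were all Cnot1 in LDN over HDN, which was not called in the main comparison: -0.042 with RLE scaling, -0.043 with DESeq2, -0.18 without the 20 most abundant genes, -0.048 without the filter, -0.0076 with the 1 CPM filter, -0.055 with only the 8 libraries, -0.059 without Naive 1 and 2, -0.021 with the replicate block, and -0.24 to 0.30 when 1 library was left out. The cause of these movements was not tested. Depth limits Ptgs2 in LDN and the genes near 1 CPM; the 5 genes lay far above the count floor.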
